A study of Mus musculus with 12 samples.

Results

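Retinoic acid is made from vitamin A inside cells and acts through nuclear receptors, and 9 mouse genes of this pathway were followed here in the neonatal somatosensory cortex. They are the retinoic acid receptors Rara, Rarb and Rarg, the retinoid X receptors Rxra, Rxrb and Rxrg, the retinaldehyde dehydrogenases Aldh1a1 and Aldh1a3, and the retinoic acid hydroxylase Cyp26b1. They were chosen by gene symbol, are 9 of the 24452 symbols listed, and hold 23 of the 35840 transcripts, whose counts were summed per symbol.

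RNA was sequenced, with the strand kept, in 12 libraries of male C57BL/6 pups at postnatal day 7. The pups were wild type (WT) or homozygous for a targeted p53 allele, Trp53tm1Tyj (p53 KO), and were born to heterozygous parents. Ethanol pups received 2 injections of 2.5 g/kg, saline pups received normal saline, and tissue was taken 8 h after the injections. The study collected the cortex by laser microdissection in a part of its samples and by a hole punch in the others. The labels do not state the method used for each library. Each of the 4 groups held 3 libraries, which are named below by genotype, treatment and library number. The WT saline group held libraries 1, 3 and 13, and the WT ethanol group held libraries 4, 5 and 14. The KO saline group held libraries 7, 8 and 9, and the KO ethanol group held libraries 10, 12 and 18. The allele is constitutive, so every cell of a KO pup and not only the cortex lacks normal p53.

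Aldehyde dehydrogenases of the Aldh1a family oxidize retinaldehyde to retinoic acid, and Cyp26 enzymes hydroxylate retinoic acid and so remove it. Retinoic acid binds a retinoic acid receptor that sits on DNA as a heterodimer with a retinoid X receptor, and the pair recruits corepressors without ligand and coactivators with it. In the forebrain, Rarb and Rxrg are known as receptors of striatal neurons, and Aldh1a3 and Cyp26b1 are known for restricted patterns in the developing telencephalon.

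Rarb is also a textbook target of retinoic acid through a direct repeat of the receptor half-site in its own promoter. The promoters of Rarb and Rxrg are therefore shown, since these were the 2 members nominally higher after ethanol. Each run is the 250 bases before a RefSeq start site in GRCm38.p6, read 5′ to 3′ on the strand of the gene, at chr14:16575477-16575726 (minus strand) for Rarb and chr1:167598112-167598361 (plus strand) for Rxrg. Capitals mark a pair of half-sites with 5 bases between them.
Rarb: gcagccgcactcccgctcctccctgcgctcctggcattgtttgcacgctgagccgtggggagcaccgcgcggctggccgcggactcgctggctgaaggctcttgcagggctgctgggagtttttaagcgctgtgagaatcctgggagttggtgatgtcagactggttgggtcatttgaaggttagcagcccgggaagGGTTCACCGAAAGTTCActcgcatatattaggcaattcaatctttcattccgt
Rxrg: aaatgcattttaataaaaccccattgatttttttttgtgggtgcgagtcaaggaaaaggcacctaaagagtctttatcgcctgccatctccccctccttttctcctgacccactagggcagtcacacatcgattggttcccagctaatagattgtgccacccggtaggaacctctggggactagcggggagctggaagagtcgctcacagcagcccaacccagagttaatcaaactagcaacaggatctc

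The search used 4 half-sites on both strands. They were AGGTCA, the variant AGTTCA, the variant GGGTCA and the variant GGTTCA. A match needed 2 half-sites in the same direction with 1, 2 or 5 bases between them. In Rarb the match was 17 bases long and lay 53 to 37 bases before the start. A RefSeq promoter was found for 8 of the 9 members, and Rarb alone among these 8 held a repeat with a 5-base spacer. Over all 32851 promoters, each taken with the 50 bases after its start, 32 held this repeat (0.0974%), 73 held the 1-base form (0.222%) and 88 the 2-base form (0.268%). None of the 8 members held the 1-base or 2-base form. The Rarb start belongs to NM_001289762 and NM_011243, which together carried most Rarb reads, with 43% and 39.1% of the gene's count.

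Sequencing depth ranged from 719738 to 17066386 counts per library. The shallowest were KO ethanol 12 and WT saline 3, whose names alone begin with a different letter, and a single count equalled 1.67 and 0.514 normalized CPM, the counts scaled to a common library size, in them. The scaling factors were 0.564 in WT saline 1, 0.857 in WT saline 13 and 0.832 in KO ethanol 12, against 0.994 to 1.23 in the other 9 libraries. Trp53, summed over the whole gene, averaged 14.8 ± 11.3 CPM in WT saline and 14 ± 6.43 in WT ethanol (SD, n = 3). In the groups labelled KO it averaged 16.8 ± 9.35 and 26.7 ± 2.91 CPM. The targeted allele removes only a part of the gene, so a count over the whole gene checks nothing about the genotype labels, and groups are called WT and KO as labelled. The 10 markers of cortical excitatory neurons summed to 567 to 1413 CPM in the 12 libraries, and none was at 0 throughout a group. No 2 libraries agreed within sampling noise: the closest pair, KO saline 7 and KO ethanol 10, gave a chi-square of 7.29 per degree of freedom, and the closest pair of one group, KO ethanol 10 and 18, gave 10.1. The labels do not say that each library came from its own litter, so p-values measure the spread between these libraries. In bulk cortex, fewer cells of a type and less RNA per cell cannot be told apart.

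Across all libraries Rxrb had the highest level per transcript length, with a mean of 21.1 ± 5.56 RPKM (SD, n = 12). RPKM are the authors' values, reads scaled by transcript length that also share one distribution across libraries. Rxrg followed at 6.54 ± 9.78 RPKM, Aldh1a1 at 5.42 ± 3.16 and Rarb at 4.38 ± 5.39. Rarg averaged 2.06 ± 0.975 RPKM, Rara 1.81 ± 1.5, Cyp26b1 1.7 ± 1.33, Rxra 1.32 ± 0.768 and Aldh1a3 0.778 ± 0.707. Only the step from Rxrb down to the next gene was wide, with Rxrb above Rxrg in 10 of 12 libraries. Rxrg lay above Aldh1a1 in only 4 of 12 libraries although its mean was higher, and the other neighbours held their order in 5 to 9 of 12. The order below Rxrb therefore did not hold library by library.

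The design asks whether ethanol changed these genes in WT and in KO pups, and whether p53 loss changed them with or without ethanol. Contrasts were taken from 1 edgeR quasi-likelihood fit over 14739 symbols, with Benjamini-Hochberg adjustment over all of them, and a nominal call is an unadjusted p under 0.05. All 9 members passed the filter on low counts. In WT pups, Rarb and Rxrg were nominally higher after ethanol, and no member was lower. That is 2 of 9 members, beside 18.3% of all symbols at the same threshold. In KO pups no member passed, beside 3.15% of all symbols. Under saline, Aldh1a3 alone was nominally higher in KO than in WT pups, 1 of 9 members beside 19.6% of all symbols. After ethanol no member differed nominally between genotypes, beside 3.24%. The Treatment main effect again named Rarb and Rxrg (7.09% of all symbols) and the Genotype main effect Aldh1a3 (7.67%). No member had a nominal Genotype x Treatment interaction, beside 15.2%.

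No member had an adjusted p under 0.05 in any of the 7 contrasts. Over all symbols the share past that threshold was 0.0746% for ethanol in WT pups, 0.0543% for KO against WT under saline, and 0% for each of the other 5 contrasts. In DESeq2, Rxrg alone among the members had an adjusted p under 0.05, for ethanol in WT pups (beside 3.33% of all symbols) and for the Treatment main effect (beside 0.362%). The median log2 fold change of the 9 members was 1.00 for ethanol in WT pups, where that of all symbols was 0.06. It was 0.04 in KO pups (all symbols 0.01), 0.43 for KO against WT under saline (0.04) and −0.24 after ethanol (−0.03).

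**Figure D1:**
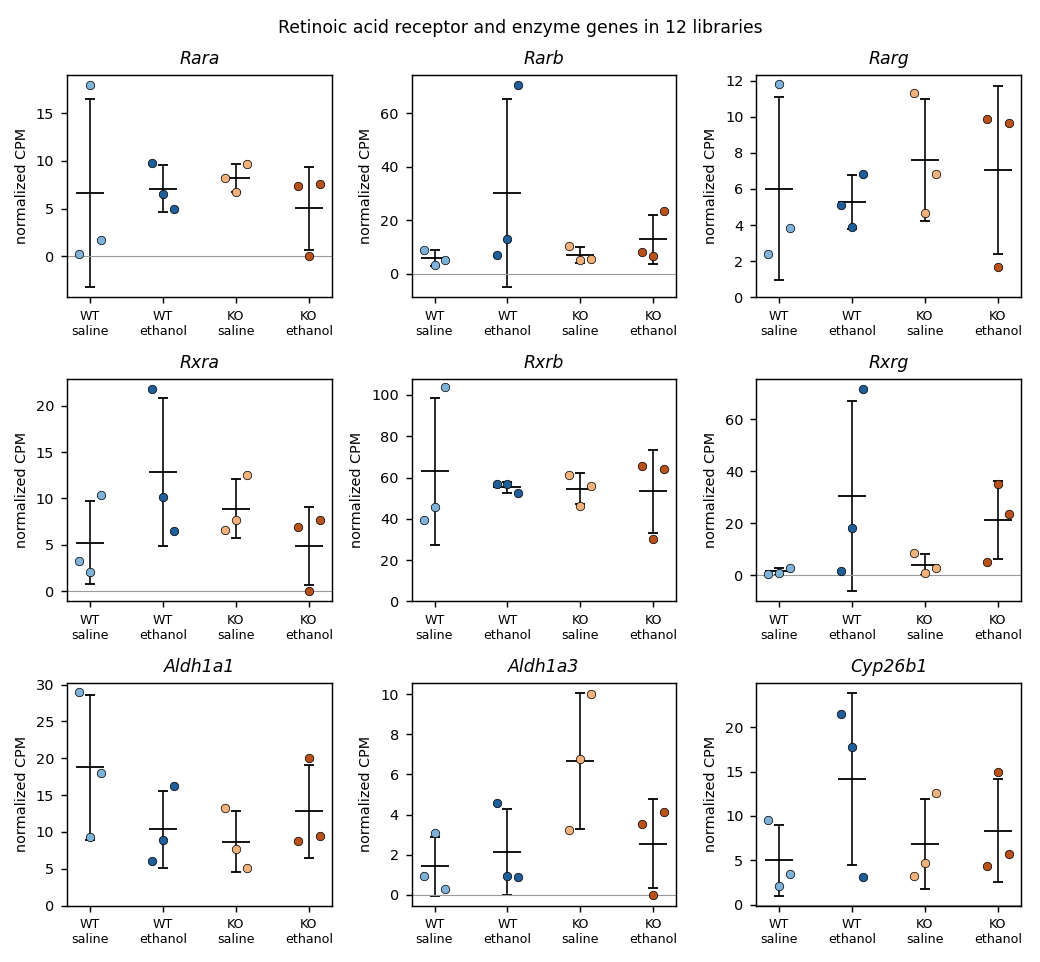
Normalized CPM of the 9 genes by group, with each point a library and the bar and whiskers the mean and SD of 3 libraries. Rarb reached 70.8 CPM and Rxrg 71.8 CPM in the same WT ethanol library, while the WT saline libraries stayed at or below 9 and 2.9 CPM.

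Among the retinoic acid receptors, Rarb had 9, 3.09 and 5.13 CPM in WT saline libraries 1, 3 and 13. It had 6.91, 12.9 and 70.8 CPM in WT ethanol libraries 4, 5 and 14. Library 14 stood far above the others, and library 4 lay within the saline range. Ethanol and saline groups of WT pups overlapped for all 9 members, beside 19.6% of all symbols that did not overlap. The fitted log2 fold change was 2.34 ± 0.79 (SE), 5.07-fold, with an adjusted p of 0.204 in edgeR. Without WT ethanol 14 it was 0.69 ± 0.64 (adjusted p = 0.614, edgeR), so the nominal call rested on that library.

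In KO pups, Rarb had 10.5, 5.15 and 5.61 CPM in saline libraries 7, 8 and 9. It had 8.21, 6.69 and 23.5 CPM in ethanol libraries 10, 12 and 18. These groups overlapped, and a single ethanol library, 18, was high. The log2 fold change in KO pups was 0.94 ± 0.76 (adjusted p = 0.999, edgeR), and the interaction was −1.40 ± 1.07 (adjusted p = 0.553, edgeR). The value for ethanol averaged over genotypes was 1.64 ± 0.54 (adjusted p = 0.631, edgeR), and 0.82 ± 0.43, no longer nominal, without WT ethanol 14 (adjusted p = 0.791, edgeR). Under saline the genotypes overlapped, and the fitted difference was 0.27 ± 0.76 on the log2 scale (adjusted p = 0.868, edgeR).

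Rara, the receptor found in most tissues, had 0.184, 18 and 1.71 CPM in WT saline libraries 1, 3 and 13. Those values spanned a wider range than the other groups did. It had 9.8, 6.58 and 4.92 CPM in the WT ethanol libraries and 8.26, 6.73 and 9.65 CPM in the KO saline libraries. KO ethanol libraries 10 and 18 gave 7.42 and 7.61 CPM, and library 12 gave no Rara count, which allows up to 5.01 CPM at its depth. Rara was thus low in WT saline 1 and 13, without a count in KO ethanol 12, and within 4.92 to 18 CPM in the other 9 libraries. The log2 fold change for ethanol in WT pups was 0.29 ± 0.99 (adjusted p = 0.896, edgeR).

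That value turned on WT saline 3. Without it, Rara was 2.67 ± 0.81 higher on the log2 scale after ethanol in WT pups (adjusted p = 0.055, edgeR). Under saline, Rara was then 2.90 ± 0.81 higher in KO than in WT pups (adjusted p = 0.0351, edgeR). For that contrast 2177 of 14996 symbols then had an adjusted p under 0.05, against 8 of 14739 with all libraries. With both shallow libraries left out, Rara was 2.66 ± 0.64 higher after ethanol in WT pups, and 2.88 ± 0.64 higher in KO than in WT pups under saline. The adjusted p-values were 0.0159 and 0.00936 in edgeR. In that fit 4 of 9 members were nominal for ethanol in WT pups, beside 37.3% of all symbols, and 1 had an adjusted p under 0.05, beside 21.5%. For KO against WT under saline the counts were 4, beside 39.2%, and 3, beside 25.3%. These shares of the members lay near those of all symbols, which themselves rose once the shallow libraries were left out.

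Rarg, a receptor known for its roles in skin and cartilage, had 2.39, 11.8 and 3.86 CPM in WT saline and 5.1, 3.89 and 6.85 CPM in WT ethanol libraries. It had 11.3, 4.68 and 6.84 CPM in KO saline and 9.87, 1.67 and 9.64 CPM in KO ethanol libraries. The groups overlapped in every comparison. Its log2 fold change for ethanol was −0.10 ± 0.65 in WT pups (adjusted p = 0.948, edgeR) and 0.07 ± 0.62 in KO pups (adjusted p = 0.999, edgeR).

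**Figure D2:**
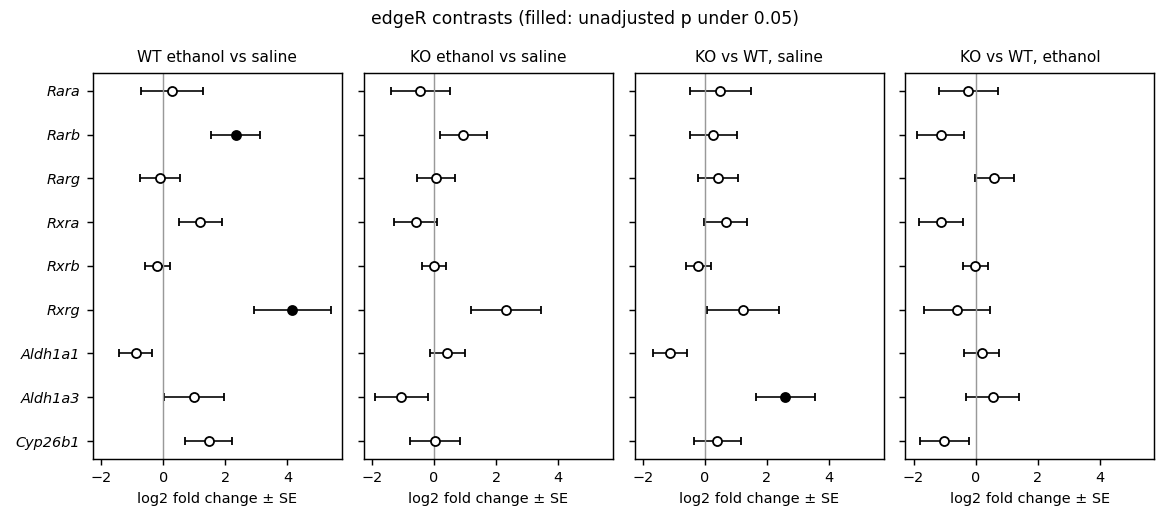
Log2 fold change with its SE for the 9 genes in the 4 pairwise contrasts of the edgeR fit, filled where the unadjusted p was under 0.05. Filled points are Rarb (2.34) and Rxrg (4.16) for ethanol in WT pups and Aldh1a3 (2.59) for KO against WT under saline.

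Among the retinoid X receptors, Rxrg had 0.551, 1.03 and 2.9 CPM in WT saline libraries 1, 3 and 13. These rest on 3, 2 and 39 counts. In WT ethanol libraries 4, 5 and 14 it had 1.64, 18 and 71.8 CPM. Library 4 lay within the saline range, and the groups overlapped. The log2 fold change was 4.16 ± 1.23, 17.9-fold (adjusted p = 0.185, edgeR). DESeq2 gave 4.30 ± 1.05 with an adjusted p of 0.00532. Without WT ethanol 14 the edgeR value was 2.5 ± 1.13, still nominal (adjusted p = 0.336, edgeR).

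In KO pups, Rxrg had 8.56, 0.761 and 2.72 CPM after saline and 5.21, 35.1 and 23.7 CPM after ethanol. Ethanol libraries 12 and 18 were high, although library 12 contributed only 21 counts, and library 10 lay inside the saline range. The difference of 2.31 ± 1.12 on the log2 scale missed the nominal threshold (adjusted p = 0.999, edgeR). It passed that threshold in DESeq2 (2.43 ± 1.02, adjusted p = 1), and in edgeR without any 1 of WT ethanol 4, WT ethanol 14, KO saline 7 or KO ethanol 10, where it lay between 2.32 and 3.58. The interaction was −1.84 ± 1.58 (adjusted p = 0.597, edgeR), so the 2 genotypes were not shown to differ in their ethanol response. Averaged over genotypes, Rxrg was 3.24 ± 0.83 higher after ethanol on the log2 scale (adjusted p = 0.474, edgeR). Without WT ethanol 14 that value was 2.42 ± 0.76, still nominal (adjusted p = 0.655, edgeR).

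Rxrb was the most evenly expressed member. It had 39.5, 45.8 and 104 CPM in the WT saline group and 56.7, 57.1 and 52.3 CPM in the WT ethanol group. In KO pups it had 61.1, 46.3 and 56.1 CPM after saline and 65.8, 30.1 and 64.1 CPM after ethanol. Its 4 pairwise log2 fold changes lay between −0.22 and 0.00 with an SE of 0.40. Rxra had 3.31, 2.06 and 10.4 CPM in WT saline and 21.8, 10.2 and 6.5 CPM in WT ethanol libraries. It had 6.56, 7.67 and 12.5 CPM in KO saline libraries, 6.95 and 7.68 CPM in KO ethanol 10 and 18, and no count in KO ethanol 12. The highest Rxra value was in WT ethanol 4, and no Rxra contrast passed the nominal threshold. For ethanol in WT pups its log2 fold change was 1.20 ± 0.70, and without WT saline 13 it was nominal at 2.21 ± 0.81 (adjusted p = 0.244, edgeR). The interaction was −1.79 ± 0.99 (adjusted p = 0.403, edgeR). It was nominal, at −1.96 ± 0.86 (adjusted p = 0.499, edgeR), once trends with transcript length and GC content were removed, and at −2.80 ± 1.02 without WT saline 13.

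Of the enzymes that make retinoic acid, Aldh1a3 had 0.919, 3.09 and 0.297 CPM in WT saline libraries 1, 3 and 13, on 5, 6 and 4 counts. It had 3.25, 6.79 and 10 CPM in KO saline libraries 7, 8 and 9. Every KO saline library lay above every WT saline library, by 3.25 against 3.09 CPM at the nearest. Aldh1a3 was the 1 of 9 members whose groups did not overlap here, beside 22.9% of all symbols. The log2 fold change was 2.59 ± 0.96, 6.01-fold (adjusted p = 0.187, edgeR). After ethanol the WT libraries gave 4.59, 0.927 and 0.878 CPM. The KO libraries gave 3.55, 0 and 4.12 CPM, and the 0 in library 12 allows up to 5.01 CPM. The genotypes overlapped after ethanol (0.54 ± 0.85, adjusted p = 0.982, edgeR), as they did for all 9 members, where 12.7% of all symbols did not overlap. The interaction for Aldh1a3 was −2.05 ± 1.28 (adjusted p = 0.462, edgeR).

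The call for Aldh1a3 under saline was lost without WT saline 13 (1.89 ± 1.01, adjusted p = 0.394, edgeR) and without KO saline 9 (2.14 ± 1.03, adjusted p = 0.432, edgeR). Without WT saline 3 it was 3.55 ± 1.01 (adjusted p = 0.0365, edgeR), in a fit where 2177 of 14996 symbols had an adjusted p under 0.05. The Genotype main effect of 1.56 ± 0.64 (adjusted p = 0.623, edgeR) was lost without any 1 of WT saline 1, WT saline 13, WT ethanol 5, KO saline 9 or KO ethanol 18. Its values then lay between 1.21 and 1.52.

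Aldh1a1, the more abundant of the 2 dehydrogenases, had 29, 9.26 and 18 CPM in WT saline and 6, 8.89 and 16.2 CPM in WT ethanol libraries. It had 13.2, 7.73 and 5.09 CPM in KO saline and 8.76, 20.1 and 9.51 CPM in KO ethanol libraries. All groups overlapped. The nearest contrast to the nominal threshold was KO against WT under saline, −1.13 ± 0.54 (adjusted p = 0.264, edgeR), with the opposite sign to Aldh1a3. It was nominal in DESeq2 (−1.14 ± 0.57, adjusted p = 0.205). In edgeR it was nominal without any 1 of WT saline 3 (−1.45 ± 0.54), KO saline 7 (−1.60 ± 0.63) or KO ethanol 12 (−1.13 ± 0.51). Without both shallow libraries it was −1.50 ± 0.49 (adjusted p = 0.0437, edgeR), beside 25.3% of all symbols with an adjusted p under 0.05. For ethanol in WT pups Aldh1a1 was at −0.89 ± 0.54 (adjusted p = 0.379, edgeR). That contrast was nominal without WT saline 3 (−1.23 ± 0.54), WT ethanol 14 (−1.41 ± 0.62) or both shallow libraries (−1.27 ± 0.50). The interaction of 1.32 ± 0.78 was nominal without any 1 of WT saline 3 (1.65 ± 0.76), WT ethanol 14 (1.85 ± 0.82) or KO saline 7 (1.81 ± 0.84).

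Cyp26b1, which breaks down retinoic acid, had 9.55, 2.06 and 3.42 CPM in WT saline libraries. It had 21.5, 17.8 and 3.16 CPM in WT ethanol libraries 4, 5 and 14. Libraries 4 and 5 were high, and library 14, which was highest for Rarb and Rxrg, lay within the saline range. The log2 fold change was 1.46 ± 0.77 (adjusted p = 0.312, edgeR). It was nominal without WT ethanol 14 (1.86 ± 0.72, adjusted p = 0.314, edgeR), without WT saline 1 (2.24 ± 0.87, adjusted p = 0.384, edgeR), and without the scaling factors (2.10 ± 0.73, adjusted p = 0.158, edgeR), where the median of all symbols was itself 0.49. In KO pups the saline libraries gave 3.25, 4.68 and 12.6 CPM and the ethanol libraries 4.34, 15 and 5.65 CPM, which overlapped (0.04 ± 0.80, adjusted p = 0.999, edgeR). Ethanol and saline groups of KO pups overlapped for all 9 members, beside 10.8% of all symbols that did not overlap.

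The library highest in Rarb and Rxrg, WT ethanol 14, was also highest in markers of striatal neurons. The list held 8 measured markers, among them the dopamine receptor genes Drd1 and Drd2, the signalling gene Ppp1r1b and the transcription factor gene Isl1. Their summed level was 198, 154 and 166 CPM in the WT saline libraries 1, 3 and 13. It was 141, 536 and 1133 CPM in WT ethanol libraries 4, 5 and 14. KO saline libraries 7, 8 and 9 had 250, 104 and 108 CPM, and KO ethanol libraries 10, 12 and 18 had 175, 264 and 493 CPM. The 3 highest sums, in WT ethanol 14, WT ethanol 5 and KO ethanol 18, were in the libraries with the 3 highest Rarb values. The next sums were in KO ethanol 12, where Rarb was at 6.69 CPM on 4 counts, and in KO saline 7. These 5 libraries held the 5 highest Rxrg values. Of the 8 markers, 6 were nominally higher after ethanol in WT pups (beside 18.3% of all symbols) and 3 in KO pups (beside 3.15%), and none was lower. Ppp1r1b, the list's gene with the highest mean RPKM, had 26.5, 47.3 and 49.2 CPM in WT saline and 26.2, 190 and 461 CPM in WT ethanol libraries. Isl1 had the smallest p of the list (5.88 ± 1.50, adjusted p = 0.15, edgeR), followed by Drd2 (3.52 ± 0.98, adjusted p = 0.178, edgeR). Both were highest in WT ethanol 14, at 10 and 15.3 CPM, but departed from Rxrg in other libraries. WT ethanol 4 had 6.51 CPM of Isl1 and 7.3 CPM of Drd2, with Rxrg at 1.64 CPM. KO ethanol 12 had no count of either, which allows up to 5.01 CPM, with Rxrg at 35.1 CPM.

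With the mean log2 level of these markers as a covariate, the ethanol difference in WT pups was −0.27 ± 0.61 for Rarb (adjusted p = 0.889, edgeR) and 0.01 ± 1.18 for Rxrg (adjusted p = 0.998, edgeR). Without WT ethanol 14 and KO ethanol 18, the library of each genotype with the most markers, it was 0.70 ± 0.61 for Rarb (adjusted p = 0.627, edgeR) and 2.52 ± 1.18 for Rxrg (adjusted p = 0.393, edgeR). Without WT ethanol 5 and 14, the 2 libraries with the most markers, it was 0.23 ± 0.81 for Rarb (adjusted p = 0.911, edgeR) and −0.02 ± 1.23 for Rxrg (adjusted p = 0.995, edgeR). That fit has 1 WT ethanol library left and assumes that it varies like the others. Neither gene was nominal for ethanol in WT pups with the covariate or without WT ethanol 14 and KO ethanol 18. Averaged over genotypes, Rxrg stayed nominally higher after ethanol without WT ethanol 14 and KO ethanol 18 (2.36 ± 0.84, adjusted p = 0.999, edgeR). The same average was 0.65 ± 0.73 with the covariate, not nominal, and 1.15 ± 0.75 without WT ethanol 5 and 14. For KO against WT after ethanol, Rxrg was nominally higher in KO pups with the covariate (2.16 ± 0.96). It was at 3.60 ± 1.50 without WT ethanol 5 and 14, where the fit over all libraries gave −0.60 ± 1.07. Aldh1a3 kept its nominal call for KO against WT under saline in the 3 fits, at 2.54 ± 0.90, 2.54 ± 0.98 and 2.63 ± 0.88. Cyp26b1 passed for ethanol in WT pups in all 3, at 2.59 ± 0.88, 1.86 ± 0.76 and 2.06 ± 0.88. With the covariate Aldh1a1 was nominally lower for ethanol in WT pups (−1.70 ± 0.74), and without WT ethanol 5 and 14 Rxra was at 1.96 ± 0.88. The marker level was itself higher on average in the ethanol groups, so marker level and treatment cannot be fully told apart in the covariate fit. These fits were chosen after the data were seen.

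**Figure D3:**
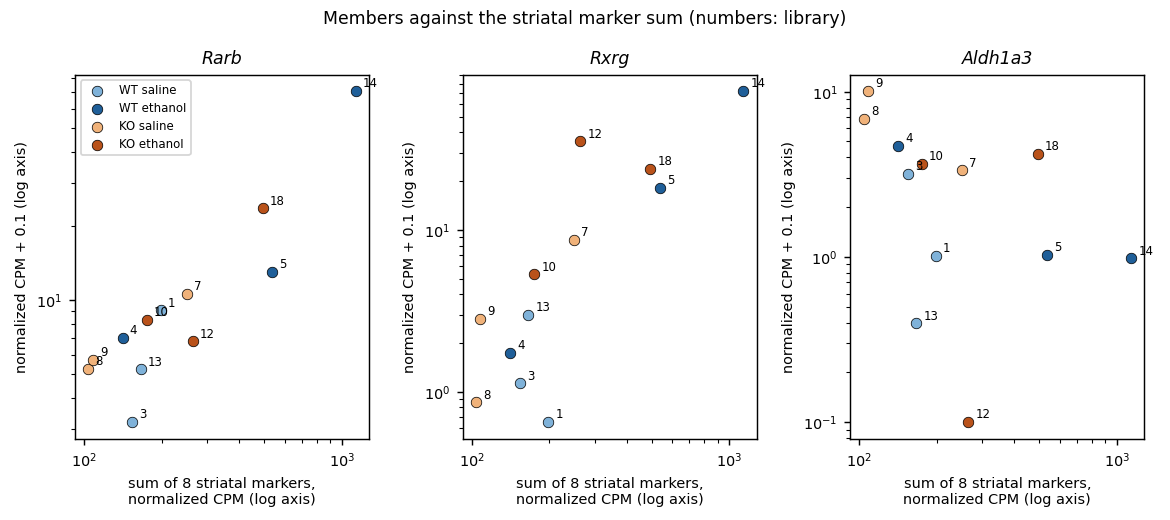
Normalized CPM, plus 0.1 for the log axis, of Rarb, Rxrg and Aldh1a3 against the summed CPM of 8 striatal markers, with each point a library labelled by its number. The 3 libraries at 493 CPM or more of the markers hold the 3 highest Rarb values, while the highest Aldh1a3 values lie at sums of 104 and 108 CPM.

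Over the 12 libraries, Rarb and Rxrg had a Pearson r of 0.75 on the log2 scale. This and the r values that follow are descriptions, and the points share depth and library makeup. Among 10064 genes with a mean of at least 10 CPM, the profile of Rarb was most like Tac1, which encodes substance P (r = 0.92), and Meis2, a homeobox gene (0.83). The profile of Rxrg was most like the striatal markers Adora2a (0.93) and Ppp1r1b (0.91). Rara lay closest to Bcl9 (0.97) and Scrt1 (0.96), and Rarg to Usp21 (0.98) and Clcn7 (0.97). Rxra lay closest to Atxn1l (0.99) and Cdkn1b (0.96), and Rxrb to Rnft2 (0.90) and Cdc42se1 (0.89). Aldh1a1 lay closest to Cnot8 (0.96) and Mrps18b (0.95), Aldh1a3 to D630045J12Rik (0.95) and Ipo8 (0.94), and Cyp26b1 to Tmeff2 and Nrn1 (0.90 each). Rara and Rarg followed each other at 0.85, and Aldh1a1 and Aldh1a3 ran opposite at −0.81.

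Markers of other cell types also moved between libraries. Choroid plexus markers summed to 5053 CPM in WT ethanol 4, which was highest for Cyp26b1 and Rxra, and to 3.34 to 2271 CPM in the other libraries. Of the 6 markers, Ttr, the transthyretin gene, had 4919 CPM there. Meningeal markers summed to 1474 CPM in WT saline 1 and 562 CPM in WT ethanol 4, against 42.7 to 261 CPM elsewhere. Of these 8 markers, 7 were nominally lower in KO than in WT pups under saline, beside 19.6% of all symbols. The meningeal list ranged from 42.7 to 1474 CPM in WT saline and from 51.1 to 156 CPM in KO saline libraries, the comparison in which Aldh1a3 was higher. Of the cortical excitatory list, WT ethanol 4 was lowest in Emx1, with 5.32 CPM, but highest in Foxp2, with 173 CPM. The summed level of that list was lowest there, at 567 CPM. The part of these markers in the values of Cyp26b1, Rxra and Aldh1a3 was not tested.

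For ethanol in WT pups 18.3% of all symbols were nominal, the share that stands beside each list that follows. Of 6 choroid plexus markers 3 were nominally higher, with the smallest p-values at Kcne2 (3.01 ± 1.15) and Clic6 (4.08 ± 1.57). None of 8 meningeal markers passed, and the nearest were Lum (−1.77 ± 1.08) and Igf2 (−1.25 ± 0.80), the most abundant of them. Of 7 interneuron markers, Gad2 (1.64 ± 0.40) and Gad1 (0.92 ± 0.31) were nominally higher, and Sst, the most abundant, was not (−0.12 ± 0.69). Of 10 cortical excitatory markers, Emx1 was nominally lower (−1.73 ± 0.54) and the others did not pass, including Fezf2 (−1.22 ± 0.62) and Neurod6 (−0.86 ± 0.62). Among 6 astrocyte and radial glia markers, Fabp7 was nominally lower (−1.34 ± 0.62), and Slc1a3 did not pass (0.68 ± 0.47). Among 5 microglia markers, Aif1 was nominally lower (−1.51 ± 0.62), while Cx3cr1 (0.62 ± 0.54) and P2ry12 (−0.18 ± 0.52) did not pass. Among 5 endothelial markers, Flt1 was nominally higher (1.11 ± 0.47), and Cldn5 did not pass (−0.74 ± 0.45). None of 8 oligodendrocyte lineage markers passed, including Pdgfra (0.73 ± 0.35), Mog (−1.98 ± 1.15) and Mbp (0.72 ± 0.61). All these are log2 differences with their SE.

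Several members have more than 1 RefSeq transcript, and reads shared by them were divided by the authors' estimate. Rarb had 4, and the pair from the start shown above held 43% and 39.1% of its count, with 9.25% and 8.6% in a pair that starts further upstream, at 17082332. The share of NM_001289762 was 36.9% after saline and 34.6% after ethanol in WT pups, and 53.9% and 49.7% in KO pups. In single libraries it ran from 10.8% to 99.6%, wider than any difference between groups. Rxrg had 74.1% in NM_009107 and 25.9% in NM_001159731. Both were nominally higher after ethanol in WT pups when transcripts were tested on their own, by 4.46 ± 1.49 (adjusted p = 0.182, edgeR) and 3.33 ± 1.46 (adjusted p = 0.251, edgeR) on the log2 scale. In KO pups NM_001159731 was nominally higher too (3.42 ± 1.40), and NM_009107 was not (1.49 ± 1.29). Of the 4 Rarb transcripts, 3 were tested alone and none was nominal in any contrast. Cyp26b1 was split 62.9% to 37.1% in every library and Rxra nearly so, so these divisions carry no comparison.

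For Rarg the transcripts differed in their calls. NM_011244, the longer gene model, was nominally higher after ethanol in WT pups (2.49 ± 1.13, adjusted p = 0.265, edgeR) and in KO than in WT pups under saline (2.74 ± 1.13, adjusted p = 0.22, edgeR), while summed Rarg did not pass. It held 13.7% of Rarg reads in WT saline libraries against 50.3%, 36.4% and 32.6% in WT ethanol, KO saline and KO ethanol libraries. In single libraries its share ran from 0.0199% to 97%. The other transcript, NM_001042727, was at −0.99 ± 0.98 and −0.25 ± 0.96 in the same contrasts and passed in neither. Among the most abundant transcripts of each symbol, 2481 and 2682 of 14637 were nominal in these contrasts. Rarb, at chromosome 14 from 16430840 to 17082332 in mm10, was the longest member locus. Rxrg lies on chromosome 1 from 167598362 to 167639624 and Aldh1a3 on chromosome 7 from 66390893 to 66427478.

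The rest of the pathway was read from lists fixed by function. Of 10 genes for retinoid uptake, binding and storage, 9 were tested, and in WT pups 2 were nominally higher and 4 lower after ethanol, beside 18.3% of all symbols. Crabp2, a binding protein that delivers retinoic acid to receptors, was one of those lower, by −3.32 ± 0.93 on the log2 scale (adjusted p = 0.178, edgeR). It had 50.7, 5.14 and 5.27 CPM in WT saline and 1.25, 1.48 and 3.69 CPM in WT ethanol libraries. Crabp1, also a binding protein, was one of those higher, by 3.60 ± 1.08 (adjusted p = 0.189, edgeR), with 2.02, 0.514 and 2.67 CPM after saline and 2.66, 14.4 and 55.3 CPM after ethanol. The highest Crabp1 value was in the library with the most striatal markers. The list's median was −1.10, with Ttr its gene of highest mean RPKM.

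Of 18 other measured enzymes of the pathway, 12 were tested. In WT pups 2 were nominally lower after ethanol, Adh5 and Rdh12, beside 18.3% of all symbols. Adh5, an alcohol dehydrogenase of class III, differed by −1.48 ± 0.49 (adjusted p = 0.202, edgeR), and Rdh12, a retinal reductase, by −2.16 ± 0.76 (adjusted p = 0.208, edgeR). Adh5 was also the most abundant of the list per length. Dhrs9 and Cyp26c1 were at 0 in all 4 groups. None of 10 tested nuclear receptors that pair with retinoid X receptors passed in WT pups. The smallest p-values were those of Nr4a2 (1.60 ± 0.75, adjusted p = 0.273, edgeR) and Ppard (1.23 ± 0.73, adjusted p = 0.362, edgeR). Thra, the thyroid hormone receptor gene with the highest level of the list, had 62.7 and 95.9 CPM in WT saline 1 and 13 and 152 CPM in KO ethanol 12, against 796 to 1421 CPM in the other 9 libraries. Those 3 libraries were also the lowest in Rara. After ethanol in KO pups, 1 of the 9 tested uptake and binding genes was nominally higher and 1 of the 10 receptor partners was lower. None of the 12 enzymes passed, and over all symbols the share was 3.15%.

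All 15 coactivators and corepressors were tested. In WT pups 6 were nominally higher after ethanol and none lower, and under saline 6 were nominally higher in KO than in WT pups, beside 18.3% and 19.6% of all symbols. These 2 comparisons share the WT saline libraries. Crebbp, a histone acetyltransferase that receptors recruit, had 5.14, 7.71 and 4.01 CPM in WT saline and 38.8, 14.9 and 19.8 CPM in WT ethanol libraries. Its log2 fold change was 2.18 ± 0.47 (adjusted p = 0.0967, edgeR). Tbl1x, a corepressor subunit, was nominally higher (1.82 ± 0.54, adjusted p = 0.185, edgeR), and Hdac3, the most abundant of the list, did not pass (−0.12 ± 0.33, adjusted p = 0.87, edgeR). In KO pups none of the 15 passed after ethanol, beside 3.15% of all symbols.

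Of 16 known retinoic acid target genes, 13 were tested. In WT pups 4 were nominally higher after ethanol and 1 lower, beside 18.3% of all symbols, with a median log2 fold change of −0.15. The higher ones included the dopamine receptor gene Drd2, which is also a striatal marker, and the lower one was Crabp2. Nr2f1, the most abundant of the list per length, differed by −0.15 ± 0.46 (adjusted p = 0.885, edgeR). In KO pups none passed after ethanol, beside 3.15% of all symbols.

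**Figure D4:**
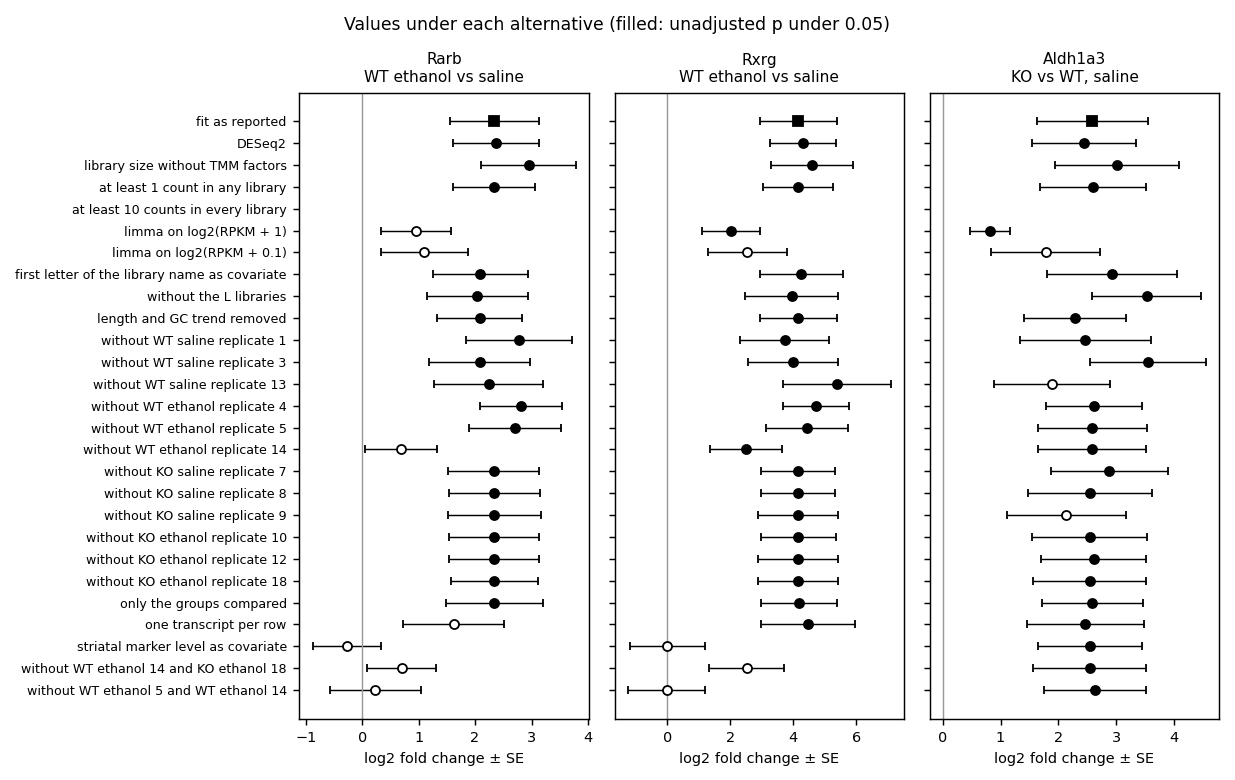
Log2 fold change with its SE for Rarb and Rxrg (ethanol against saline in WT pups) and Aldh1a3 (KO against WT under saline) in the fit as reported (square) and under the alternatives (circles), filled where the unadjusted p was under 0.05. The linear model on RPKM, which gives no log2 value, is not drawn. Empty rows are alternatives in which the gene was not tested. With the striatal marker level as a covariate Rarb was at −0.27 and Rxrg at 0.01, while Aldh1a3 was at 2.54.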

How the data were processed

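The authors sequenced stranded libraries (75 bases, single end), which the labels call mRNA and the study's methods total RNA, aligned reads to mm10 (GRCm38) with Bowtie2 and TopHat, and used Partek Flow to estimate the reads of each RefSeq transcript. They deposited 2 tables per library: estimated counts per transcript, not normalized, and RPKM values that share one distribution across libraries. The counts were summed per symbol and rounded, and tested with edgeR 4.0.16 (TMM factors, filterByExpr, 1 mean per group). CPM are normalized by the same factors. Alternatives were DESeq2, limma on log2(RPKM + 1) and log2(RPKM + 0.1), a linear model on RPKM, other filters and scalings, length and GC trends, and each library left out. Where a gene has no count, its upper limit is 3 counts, which covers counting error only. The edgeR test was also run on simulated counts, drawn without differences in makeup between libraries and changed only in genes above a minimum mean level. That run does not cover genes of low mean level, such as Aldh1a3, or libraries that differ in makeup.

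All 9 members were named in every contrast. From each other list, the 2 genes of smallest p for ethanol in WT pups and the gene of highest mean RPKM were named, and for each member the 2 genes of most similar profile, as log2(CPM + 0.5). One gene of the marker lists is not reported here on its own. Members and lists were chosen with earlier results of these data known.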

Additional observations from a re-analysis of the deposited data

How the results depend on the processing

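No paired analysis was possible because the labels do not give the litter or any pairing of the pups. With each library left out in turn, the number of the 9 genes at an unadjusted p under 0.05 ran from 2 to 4 for ethanol in WT pups (2 as reported), from 0 to 1 for ethanol in KO pups (0), from 0 to 3 for KO against WT under saline (1), and from 0 to 1 for KO against WT after ethanol (0). It ran from 1 to 3 for the Treatment main effect (2), from 0 to 3 for the Genotype main effect (1), and from 0 to 3 for the interaction (0). The highest counts for ethanol in WT pups, for KO against WT under saline and for the last 3 contrasts came without WT saline 3. In that fit 4751 of 14996 symbols were nominal for ethanol in WT pups, against 2704 of 14739 as reported. For KO against WT under saline, Treatment, Genotype and the interaction, 5039, 2833, 3437 and 3538 were, against 2890, 1045, 1130 and 2237. Without both shallow libraries, WT saline 3 and KO ethanol 12, the counts were 4 for ethanol in WT pups, 4 for KO against WT under saline, 4 for Genotype and 2 for the interaction. Over all 14967 symbols tested, the nominal calls in these contrasts were 5582, 5863, 5115 and 3206.

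In DESeq2 the counts that moved were 1 for ethanol in KO pups (Rxrg) and 2 for KO against WT under saline (Aldh1a1 and Aldh1a3). Fitting only the 2 groups compared, or keeping every gene with at least 1 count, gave 1 for ethanol in KO pups (Rxrg). A minimum of 10 counts in every library kept 2 of the 9 genes and gave 0 for ethanol in WT pups, for KO against WT under saline, and for both main effects. limma on log2(RPKM + 1) gave 1 each for ethanol in WT pups, ethanol in KO pups, KO against WT after ethanol and Treatment, and 0 for Genotype. limma on log2(RPKM + 0.1) gave 0 for ethanol in WT pups, 0 for KO against WT under saline, 1 after ethanol, 1 for Treatment and 0 for Genotype. A linear model on RPKM gave 0 for ethanol in WT pups, 1 in KO pups (Aldh1a3), and 0 for both main effects. With 1 transcript per row the counts were 1 for ethanol in WT pups and 1 for Treatment, and with length and GC trends removed 1 for the interaction. Of 14739 symbols, nominal calls for ethanol in WT pups were 3140 in DESeq2, 1720 and 1640 in the limma fits and 1521 in the linear model. For ethanol in KO pups they were 583, 575, 552 and 546, and for KO against WT under saline 3344, 1796, 1688 and 1618. The cause of the changes in the counts of members was not tested.

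In fits chosen after the data were seen, the striatal marker level as a covariate gave 2 for KO against WT under saline, 1 after ethanol, 1 for Treatment, 2 for Genotype and 1 for the interaction. For ethanol in WT pups the count stayed at 2, beside 1673 of 14739 symbols, but the genes were Aldh1a1 (lower) and Cyp26b1 (higher). Leaving out WT ethanol 14 and KO ethanol 18 gave 1 for ethanol in WT pups (Cyp26b1), 1 for Treatment (Rxrg), 0 for Genotype and 1 for the interaction (Aldh1a1). Leaving out WT ethanol 5 and 14 gave 1 for ethanol in KO pups, 1 for KO against WT after ethanol, 0 for Treatment and 2 for the interaction. With the covariate, Rarb turned from 2.34 to −0.27 for ethanol in WT pups and from 1.64 to −0.25 for Treatment, and Rxrg from −0.60 to 2.16 for KO against WT after ethanol. Without WT ethanol 5 and 14, Rxrg turned from 4.16 to −0.02 for ethanol in WT pups and from −0.60 to 3.60 for KO against WT after ethanol. Rara turned from −0.08 for Treatment to 1.26 without the shallow libraries, and ran from −0.39 to 1.13 with each library left out. Of 1625 values of members under 27 alternatives, 1371 kept their sign and their side of the threshold, 34 were no longer past it, 57 passed under the alternative alone, and 156 that passed in neither fit changed sign. Without the scaling factors the median of all symbols moved from 0.06 to 0.49 for ethanol in WT pups and from 0.04 to 0.49 for KO against WT under saline. At the 719738 counts of KO ethanol 12, a gene without a count there may lie at up to 5.01 CPM.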
